A study of Zea mays with 6 samples.

Results

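The genes described here are 7 maize genes grouped as regulators of the root response to iron (Fe): 6 genes for basic helix-loop-helix (bHLH) proteins and 1 gene for a NAC protein, both families of DNA-binding transcription factors. They were taken by identifier, with earlier results of these samples known. The genes are IRO2 (GRMZM2G057413), IRO4 (AC193786_3_FGT005), IRO3 (GRMZM2G350312), a FER-like gene (GRMZM2G107672), a homolog of PYE (GRMZM2G133675), bHLH39 (GRMZM2G162382) and a NAC gene (GRMZM5G898290). They are read by 14 transcripts and 30 probes, of 59756 transcripts, 39219 genes and 139000 transcript probes on the array. The study names all but bHLH39 among its regulators, from its own analysis of these same samples, so a direction found for them here is not independent evidence.

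RNA from roots of the maize hybrid PR33T56 was measured on 6 NimbleGen arrays with 1 dye (Cy3), of which 3 are labelled Fe-deficient and 3 Fe-sufficient. All seedlings were moved at 5 days of age into a nutrient solution without Fe, so plants of both groups passed through an Fe-free week. From 12 to 19 days of age, Fe-deficient plants stayed for another 7 days without Fe-EDTA, while Fe-sufficient plants received 100 µM Fe-EDTA for 7 days. Each array holds RNA pooled from the roots of 6 plants, and the study states that its 3 replicates were separate cultivations. The comparison asks which regulator transcripts differ in abundance between roots kept without Fe and roots given Fe after the Fe-free week. RNA of whole roots was measured, so fewer cells of a type and less RNA per cell cannot be told apart.

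Grasses take up Fe mainly by releasing phytosiderophores, small Fe-binding acids made from nicotianamine, and by importing the Fe-phytosiderophore complex. In rice, the bHLH protein IRO2 activates genes for phytosiderophore synthesis and uptake, while the related protein IRO3 acts as a repressor of Fe-deficiency genes. FER in tomato, and its counterpart FIT in Arabidopsis, are bHLH proteins that switch on Fe uptake genes of the root, and PYE (POPEYE) of Arabidopsis is a bHLH repressor of Fe homeostasis genes. These roles were worked out in those species and are background to the maize genes named after them.

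The array labelled Fe-sufficient 1 stood apart from the other arrays of its group. Across all transcripts its levels had Spearman correlations of 0.981, 0.960 and 0.982 with Fe-deficient 1, 2 and 3, and of 0.967 and 0.963 with Fe-sufficient 2 and 3, while Fe-sufficient 2 and 3 correlated at 0.984 with each other. Fe-deficient 2 was the array least like the others, with correlations of 0.974 and 0.965 with Fe-deficient 1 and 3 and of 0.960, 0.950 and 0.945 with Fe-sufficient 1, 2 and 3. TOM1 (GRMZM2G063306) exports phytosiderophores, and in rice and barley its transcript accumulates in Fe-starved roots. Its transcript T02 had log2 levels of 12.61, 11.14 and 12.59 in the Fe-deficient group, against 8.49, 13.51 and 12.52 in the Fe-sufficient group, so that Fe-sufficient 1 was far below the other 5 arrays. The difference of TOM1 T02, as Fe-deficient minus Fe-sufficient, was 0.61 on all arrays and -0.90 without Fe-sufficient 1, and that of T01 was -0.03 and -1.65, none of them called. The files do not settle, for Fe-sufficient 1 or for Fe-sufficient 2 and 3, whether the RNA is that named by the label. The labels were kept as given, and groups are named below as labelled. All 6 arrays lay on 1 slide, the Fe-deficient ones at positions 10, 11 and 12 and the Fe-sufficient ones at positions 7, 8 and 9, so slide position and group cannot be told apart. Of 4 root marker genes found on the array, 4 were above background on all arrays, against 14 of 23 leaf photosynthesis genes and 5 of 12 pollen and seed genes, and 0 transcripts of these lists were called. These genes were counted by their brightest transcript. Over all transcripts 72.3% were above background on all arrays.

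Levels are log2 intensities summarised over the 1 to 3 probes of a transcript, and a transcript counted as above background on an array where at least 1 of its probes exceeded the 95th percentile of the 1663 random-sequence probes of that array. By that limit 12 of the 14 regulator transcripts were above background on all 6 arrays, 1 on some arrays and 1 on none. Over all transcripts 72.3% were above background on all arrays and 12.1% on none. A transcript was called where the limma adjusted p was at most 0.05 and the fold change at least 1.5. Of the 14 regulator transcripts 0 were called, with limma adjusted p between 0.446 and 0.897, against 51 of all 59756 transcripts (0.0853%), of which 42 were higher (0.0703% of all) and 9 lower (0.0151% of all) in Fe-deficient roots. At an unadjusted limma p of at most 0.05 and the same fold, 3 of 14 passed, where 5.34% of all transcripts did. Of these 3, 2 were higher in Fe-deficient roots, as were 2.54% of all transcripts, and 1 was lower, as were 2.80%. The 2 groups did not overlap in 4 of the 14, as in 17.4% of all transcripts, 2 of them higher (9.75% of all transcripts) and 2 lower (7.65% of all transcripts) in Fe-deficient roots. Differences, as Fe-deficient minus Fe-sufficient, were positive for 5 and negative for 9 transcripts, with a median of -0.17 beside 0.01 over all transcripts.

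**Figure D1:**
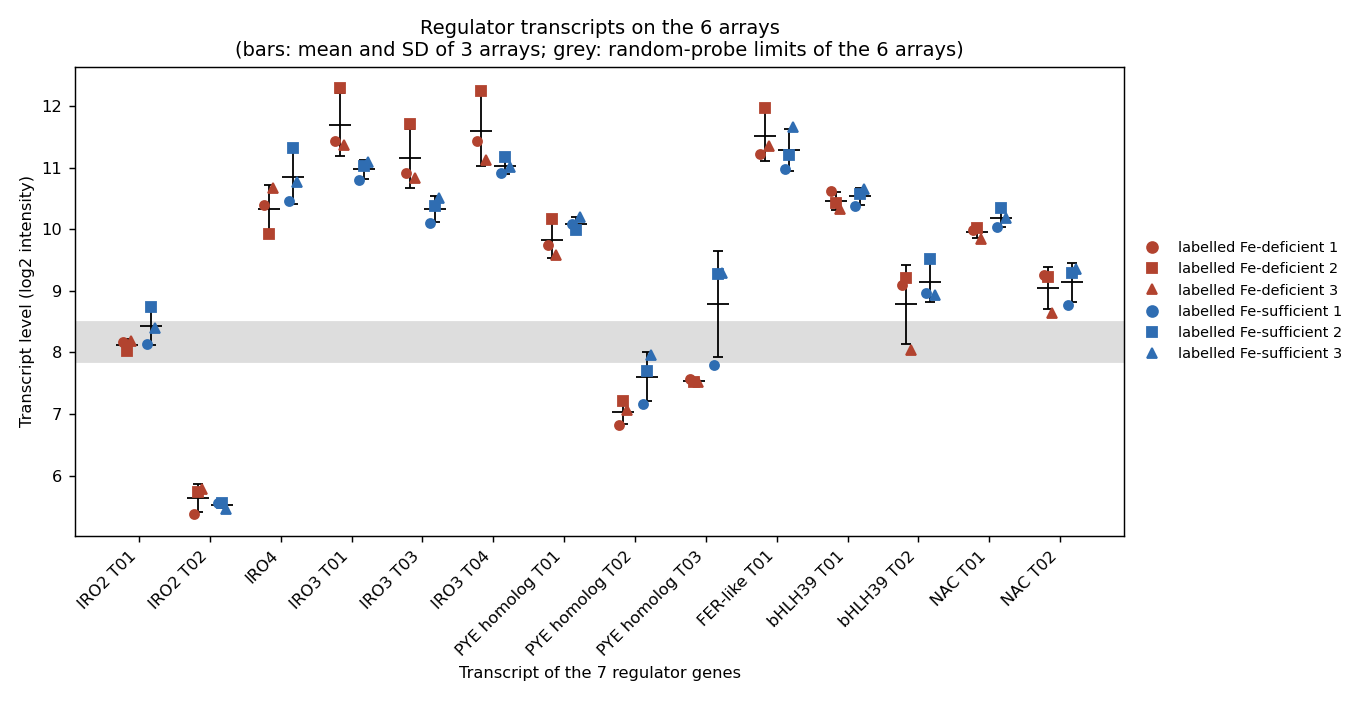
Log2 intensity of each of the 14 regulator transcripts on the 6 arrays, in red for arrays labelled Fe-deficient and in blue for those labelled Fe-sufficient, with the mean and SD of each group (n = 3) and a grey band that spans the random-probe limits of the 6 arrays. IRO3 T01 and T03 lie higher on the Fe-deficient arrays without overlap, and PYE homolog T03 is near 7.5 on all Fe-deficient arrays and near 9.3 on Fe-sufficient 2 and 3.

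IRO2 carries the name of the rice activator of the phytosiderophore pathway, and the study assigns it and IRO4 to the same rice gene. Neither was called. IRO2 transcript T01 had log2 levels of 8.18, 8.02 and 8.18 on the Fe-deficient arrays, against 8.14, 8.74 and 8.39 on the Fe-sufficient arrays. The groups overlapped because Fe-sufficient 1 lay among the Fe-deficient arrays, and the difference of -0.30 had a 95% interval of -0.73 to 0.14 (limma adjusted p = 0.574). Without Fe-sufficient 1 it was -0.44 ± 0.17 (SE, limma adjusted p = 0.257). The signal of T01 came from the probe at position 228 of the transcript, with intensities of 1038, 645 and 1116 on the Fe-deficient arrays and 831, 1996 and 1039 on the Fe-sufficient arrays. The second probe of T01, at position 645, was below the random-probe limit on every array, with intensities between 75.8 and 109. The level of T01 averages both probes, and its interval and SE are those of the average. The probe at position 228 alone gave -0.40 ± 0.37 (SE) on all arrays and -0.67 ± 0.38 (SE) without Fe-sufficient 1, neither of them called.

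IRO2 transcript T02 was not above background on any array. Its 3 probes had intensities between 32.5 and 158, below the limits of 291, 250 and 229 on the Fe-deficient arrays and 246, 359 and 245 on the Fe-sufficient arrays. No fold change is given for it. The probe at position 654 had 149, 93.9 and 158 on the Fe-deficient arrays and 81.1, 102 and 76.7 on the Fe-sufficient arrays, so the one array of each group that departed from the other arrays of that group was replicate 2. For this splice form no difference was detectable at the signal these probes gave.

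IRO4 had log2 levels of 10.40, 9.92 and 10.68 on the Fe-deficient arrays, against 10.45, 11.32 and 10.77 on the Fe-sufficient arrays. The lowest value was that of Fe-deficient 2 and the highest that of Fe-sufficient 2, and the groups overlapped. The difference was -0.52 with a 95% interval of -1.18 to 0.15 (limma adjusted p = 0.539), and -0.71 ± 0.28 without Fe-sufficient 1 (SE, limma adjusted p = 0.273). Leaving out either of the extreme arrays brought it closer to 0, to -0.31 without Fe-deficient 2 and -0.28 without Fe-sufficient 2. Its probe at position 675 was dim on 4 arrays and brighter on 2. Intensities were 80.5, 96.8 and 128 on the Fe-deficient arrays and 101, 400 and 443 on the Fe-sufficient arrays. This probe was above the random-probe limit only on Fe-sufficient 2 and 3. Without Fe-sufficient 1, in a fit of single probes chosen after seeing the data, it gave -2.07 ± 0.24 (SE). It was called there (limma adjusted p over all probes = 0.0285), as were 1.33% of all probes. The probes of IRO2 at position 228 and of IRO4 at positions 220 and 546 all had their lowest value on Fe-deficient 2 and their highest on Fe-sufficient 2. Whether these probes also bind the transcript of the other gene was not tested, as probe sequences were not used here.

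IRO3, named after the rice repressor, had the largest positive differences among the regulators, in all 3 of its transcripts. T01 had log2 levels of 11.43, 12.29 and 11.37 on the Fe-deficient arrays, against 10.80, 11.03 and 11.10 on the Fe-sufficient arrays. T03 had 10.91, 11.71 and 10.83 on the Fe-deficient arrays, against 10.10, 10.37 and 10.51 on the Fe-sufficient arrays. In both transcripts every Fe-deficient array exceeded every Fe-sufficient array. T04 had 11.44, 12.24 and 11.13 on the Fe-deficient arrays and 10.91, 11.18 and 11.01 on the Fe-sufficient arrays, so that Fe-deficient 3 fell just below Fe-sufficient 2.

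The differences of IRO3 were 0.72 (95% interval 0.10 to 1.35, 1.65-fold) for T01, 0.82 (0.21 to 1.44, 1.77-fold) for T03 and 0.57 (-0.11 to 1.24, 1.48-fold) for T04. Limma adjusted p over all transcripts was 0.463, 0.446 and 0.517, so none was called. In each transcript Fe-deficient 2 was the highest array and Fe-sufficient 1 the lowest. Without Fe-deficient 2 the differences were 0.43, 0.54 and 0.25, and without Fe-sufficient 1 they were 0.64, 0.71 and 0.51, all still positive and none called. At the level of single probes, 5 of the 6 IRO3 probes were higher on every Fe-deficient array than on any Fe-sufficient array, where 9.26% of all probes were. The probe of T01 at position 638 read 8735, 16506 and 8301 on the Fe-deficient arrays and 5773, 6569 and 6608 on the Fe-sufficient arrays. The probe of T03 at position 365 was dimmer and moved in the same direction, with 425, 809 and 354 on the Fe-deficient arrays and 212, 251 and 320 on the Fe-sufficient arrays, the first 2 of which were below the random-probe limit of their array. The 1.77-fold of T03 therefore rests partly on a probe near background. The bright probe of T03, at position 673, differed by 0.70 ± 0.22 (SE). The 3 transcripts are splice forms of 1 gene read from the same RNA and are not separate measurements of it.

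**Figure D2:**
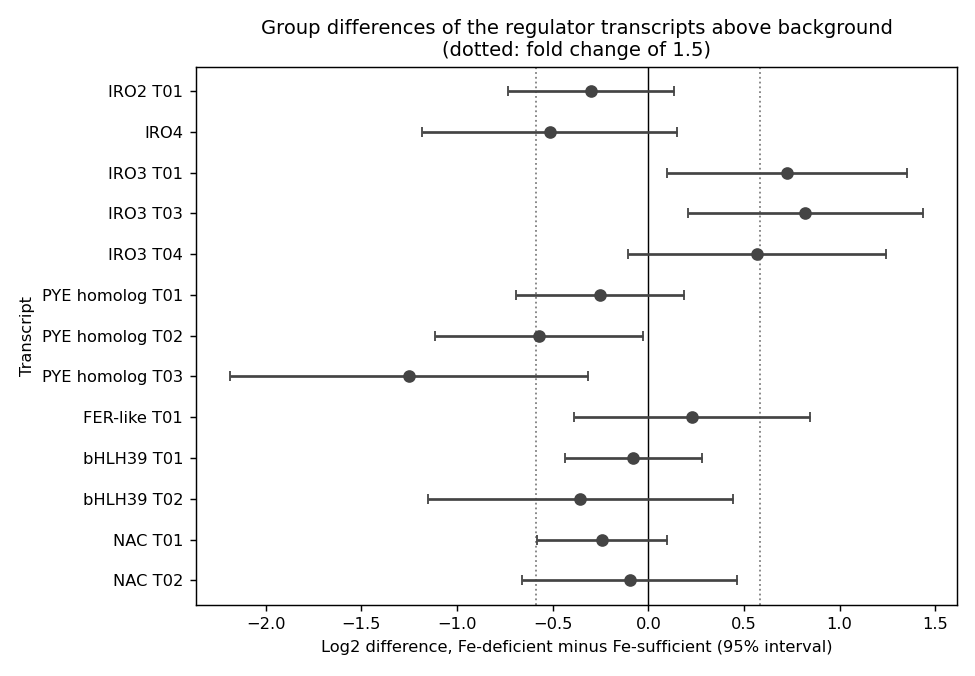
Log2 difference of each regulator transcript above background on at least 1 array, Fe-deficient minus Fe-sufficient, with its 95% interval from limma (3 arrays per group) and dotted lines at a fold change of 1.5 in either direction. The intervals of IRO3 T01 and T03 lie above 0 and those of PYE homolog T02 and T03 below 0, while the other 9 include 0.

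The FER-like gene, named after the tomato activator of Fe uptake, was bright on all arrays and did not differ between the groups beyond the spread of its arrays. Its transcript T01 had log2 levels of 11.22, 11.97 and 11.35 on the Fe-deficient arrays, against 10.98, 11.21 and 11.66 on the Fe-sufficient arrays. The highest value was that of Fe-deficient 2 and the lowest that of Fe-sufficient 1. The difference was 0.23 (95% interval -0.39 to 0.84, limma adjusted p = 0.758), which leaves room for changes of 1.5-fold upward. Without Fe-deficient 2 it came to 0.0006 and without Fe-sufficient 1 to 0.08. Its probe at position 1084 read 6118, 10302 and 8059 on the Fe-deficient arrays and 6579, 6292 and 9410 on the Fe-sufficient arrays, with both groups spanning the same range.

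The PYE homolog had negative differences in all 3 of its transcripts, the largest in T03. T03 had log2 levels of 7.57, 7.51 and 7.52 on the Fe-deficient arrays, against 7.79, 9.27 and 9.30 on the Fe-sufficient arrays. The Fe-deficient arrays were within 0.03 (SD) of one another. The 2 probes of T03 ranked these arrays in opposite order, so the averaged level varied less there than either probe. Fe-sufficient 1 lay much closer to the Fe-deficient arrays than to Fe-sufficient 2 and 3, though above all of them. The difference was -1.25 (95% interval -2.19 to -0.31) and was not called (limma adjusted p = 0.446). Its spread within groups was larger than that of 93.0% of all transcripts. Without Fe-sufficient 1 the difference was -1.75 ± 0.13 (SE), and the transcript was called as lower in Fe-deficient roots (limma adjusted p = 0.00732). This SE and adjusted p are those of the averaged level, in which the probe at position 814 was below the random-probe limit on every Fe-deficient array. The fit leaves out an array that stood apart in these same data and keeps only Fe-sufficient 2 and 3 in their group. On these, TOM1 T02 was at 13.51 and 12.52, against 12.61, 11.14 and 12.59 on the Fe-deficient arrays. In that comparison 1096 of all transcripts (1.83%) were called, 934 of them lower (1.56%) and 162 higher (0.271%) in Fe-deficient roots, and this was the only regulator transcript among them. Leaving out any other single array gave differences between -1.27 and -0.99, none of them called.

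Both probes of PYE homolog T03 showed the same split of arrays. At position 319 intensities were 683, 575 and 697 on the Fe-deficient arrays and 875, 1948 and 1606 on the Fe-sufficient arrays. At position 814 they were 53.0, 58.1 and 48.2 on the Fe-deficient arrays and 56.0, 194 and 246 on the Fe-sufficient arrays, of which only the last exceeded the random-probe limit of its array. The level of T03 averages both probes, so no fold change is given for it. The brighter probe alone, at position 319, gave a difference of -1.11 ± 0.31 (SE, n = 3 per group) and was not called. Without Fe-sufficient 1, in a fit of single probes chosen after seeing the data, it gave -1.44 ± 0.19 (SE), 2.72-fold lower in Fe-deficient roots. Its limma adjusted p over all probes was 0.0378, where 1.33% of all probes were called. Also called in that fit were T03 position 814 (limma adjusted p = 0.0183) and IRO4 position 675 (limma adjusted p = 0.0285). Both were below the random-probe limit on every Fe-deficient array. No other regulator probe was called.

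The other transcripts of the PYE homolog differed less. T02 had log2 levels of 6.83, 7.21 and 7.06 on the Fe-deficient arrays, against 7.17, 7.70 and 7.95 on the Fe-sufficient arrays, and was above background on 1 array of each group. Fe-deficient 2 reached just above Fe-sufficient 1, and the difference of -0.57 (95% interval -1.11 to -0.03) had a limma adjusted p of 0.476. It was -0.79 without Fe-sufficient 1 (limma adjusted p = 0.108) and -1.04 with normexp background correction, neither of them called. The negative difference came from a probe without signal above background. This probe, at position 515, was below the limit on all arrays, with 48.7, 55.5 and 89.5 on the Fe-deficient arrays and 95.6, 149 and 196 on the Fe-sufficient arrays. The other probe, at position 465, exceeded the limit on 1 array of each group and had a difference of 0.04, with overlapping intensities of 265, 394 and 200 on the Fe-deficient arrays and 216, 288 and 312 on the Fe-sufficient arrays. T01, which was above background on all arrays, had 9.74, 10.17 and 9.58 on the Fe-deficient arrays and 10.08, 9.98 and 10.19 on the Fe-sufficient arrays. The groups of T01 overlapped, and its difference of -0.25 had a 95% interval of -0.69 to 0.19 (limma adjusted p = 0.624). Whether T03 differs from T01 of the same gene was not tested.

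**Figure D3:**
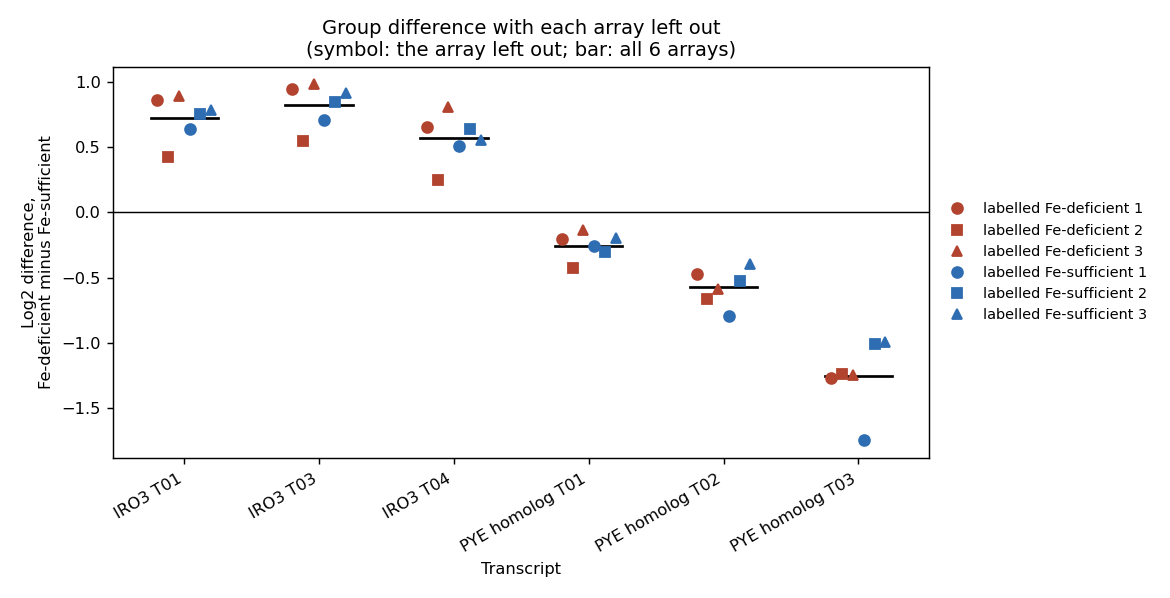
Log2 difference, Fe-deficient minus Fe-sufficient, of the transcripts of IRO3 and the PYE homolog with each array left out in turn (the symbol names the array left out, the bar is the value on all 6 arrays). IRO3 comes closest to 0 without Fe-deficient 2, and PYE homolog T03 is at -1.75 without Fe-sufficient 1 and between -1.27 and -0.99 without any other array.

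The gene bHLH39 has its name from the maize gene table, where the number follows the maize family and says nothing of kinship with the Arabidopsis gene of that number. T01 had log2 levels of 10.62, 10.42 and 10.32 on the Fe-deficient arrays, against 10.38, 10.57 and 10.65 on the Fe-sufficient arrays. Its difference of -0.08 had a 95% interval of -0.43 to 0.28 (limma adjusted p = 0.865) and was -0.16 without Fe-sufficient 1. That interval holds no change of 1.5-fold in the averaged level, in which 1 of the 2 probes was dim. The dim probe, at position 1628, exceeded the random-probe limit on only 1 array of each group. The bright probe, at position 1310, differed by 0.03 ± 0.18 (SE). T02 had 9.09, 9.21 and 8.04 on the Fe-deficient arrays and 8.96, 9.51 and 8.94 on the Fe-sufficient arrays, with Fe-deficient 3 below all other arrays. Its difference of -0.36 (95% interval -1.15 to 0.44, limma adjusted p = 0.701) became 0.01 without Fe-deficient 3. That array was low in 1 probe of T02 more than in the other: at position 585 intensities were 421, 309 and 141 on the Fe-deficient arrays and 432, 565 and 434 on the Fe-sufficient arrays.

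The NAC gene, listed as NAC40 in the gene table, was the only regulator here outside the bHLH family. T01 had log2 levels of 9.98, 10.01 and 9.85 on the Fe-deficient arrays, against 10.04, 10.35 and 10.18 on the Fe-sufficient arrays. All Fe-deficient arrays were below all Fe-sufficient arrays, but Fe-sufficient 1 was only just above them and the difference was small, at -0.24 (95% interval -0.58 to 0.10, limma adjusted p = 0.563). The probe at position 1170 carried it, with 1879, 2004 and 1723 on the Fe-deficient arrays and 2867, 2408 and 2243 on the Fe-sufficient arrays, while the probe at position 31 overlapped. The 2 probes disagreed on Fe-sufficient 1, which was the highest array at position 1170 and the lowest at position 31 (385). The level of T01 on that array averages these. T02 had 9.26, 9.22 and 8.65 on the Fe-deficient arrays and 8.78, 9.30 and 9.35 on the Fe-sufficient arrays. Its difference of -0.10 (95% interval -0.66 to 0.47, limma adjusted p = 0.897) had no stable sign, being 0.10 without Fe-deficient 3 and -0.28 without Fe-sufficient 1.

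**Figure D4:**
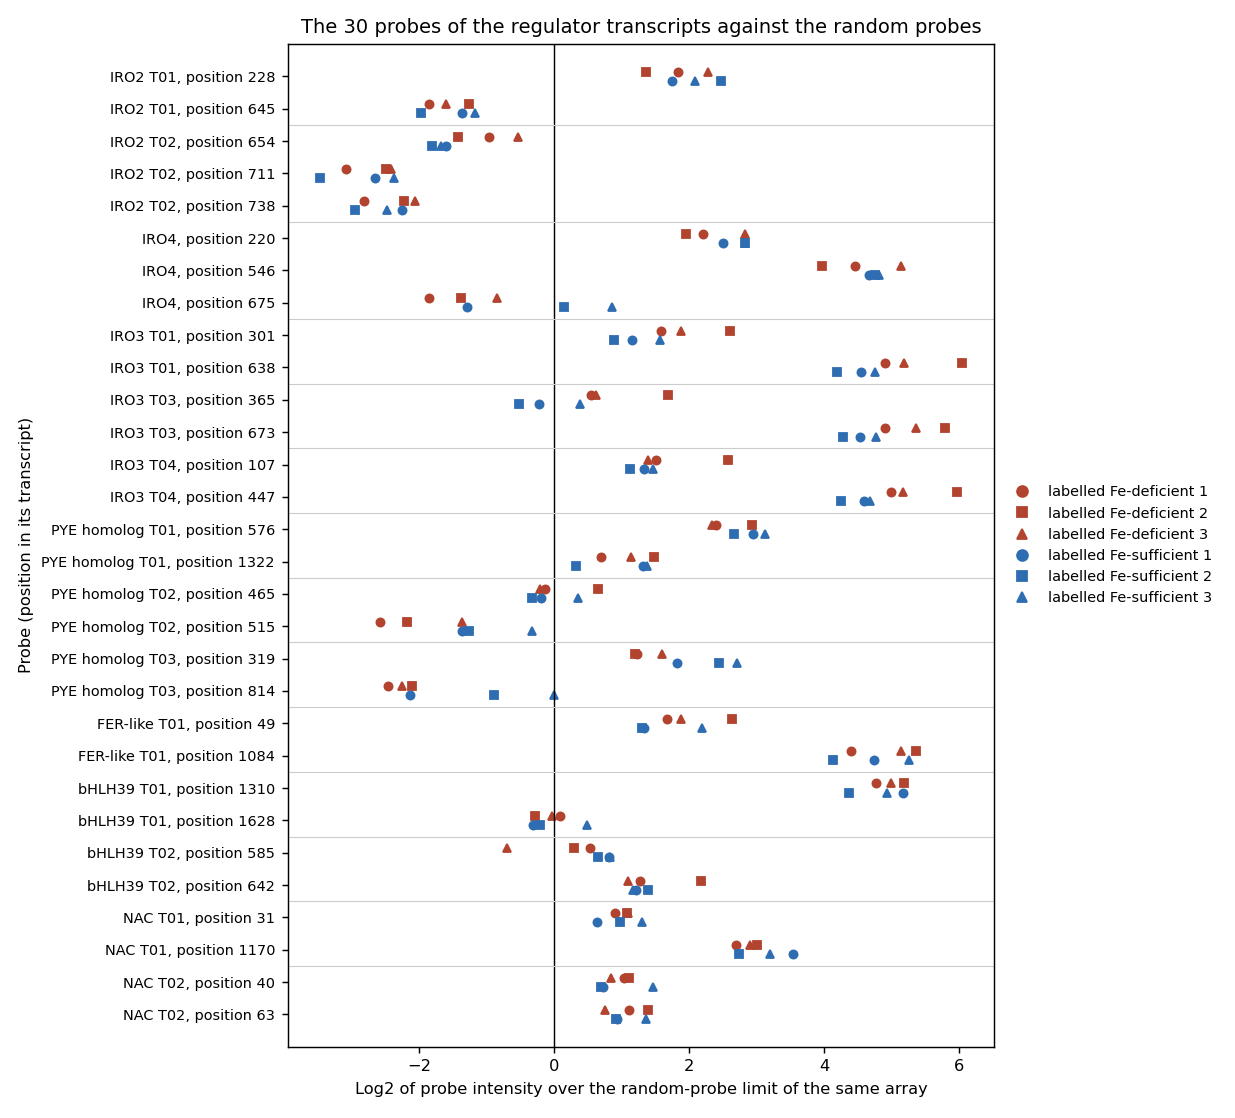
Log2 of the intensity of each of the 30 regulator probes over the random-probe limit of the same array, with the Fe-deficient arrays in red above the Fe-sufficient arrays in blue for each probe and the vertical line at the limit. Of the 30 probes, 19 lie right of the line on all arrays and 5 on none, and 5 of the 6 IRO3 probes have all red symbols right of all blue ones.

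Among the 30 probes, 5 were higher and 5 lower on all Fe-deficient arrays than on all Fe-sufficient arrays, where 9.26% and 7.60% of all probes were. All 5 higher ones belonged to IRO3. The 5 lower ones were spread over the PYE homolog (3 probes, 1 in each transcript), bHLH39 T02 and NAC T01. No regulator probe had the same values as another. The regulators varied more within groups than most transcripts, with a median within-group SD of 0.35 beside 0.24 over all transcripts, and a median absolute difference of 0.33 beside 0.19. Over the 12 transcripts above background on all arrays, the highest value fell on Fe-deficient 2, Fe-sufficient 2 or Fe-sufficient 3 in 4 transcripts each. The lowest fell on Fe-deficient 2 in 3, on Fe-deficient 3 in 5 and on Fe-sufficient 1 in 4 transcripts, and Fe-deficient 1 was never at an end.

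Genes grouped here as pathway genes cover phytosiderophore synthesis and the transport and storage of Fe. Of 10 transcripts of 7 pathway genes 0 were called, with limma adjusted p between 0.491 and 0.995. As 0.0853% of all transcripts were called, this does not set them apart. The groups did not overlap in 2, both lower in Fe-deficient roots, as were 7.65% of all transcripts. These were YS1 (GRMZM2G156599), the importer of the Fe-phytosiderophore complex, with 11.08, 10.90 and 10.86 on the Fe-deficient arrays against 11.34, 11.81 and 11.11 on the Fe-sufficient arrays, and the metal transporter gene NRAMP1 (GRMZM2G178190), with 12.75, 12.07 and 12.80 on the Fe-deficient arrays against 12.94, 13.18 and 13.00 on the Fe-sufficient arrays. Nicotianamine synthase (NAS, GRMZM2G050108) was lowest on Fe-sufficient 1, as TOM1 was, with log2 levels of 8.89, 9.15 and 8.99 on the Fe-deficient arrays against 8.17, 9.06 and 8.96 on the Fe-sufficient arrays. Its difference was 0.28 on all arrays and 0.001 without Fe-sufficient 1, and that of deoxymugineic acid synthase (DMAS, GRMZM2G060952, T01) was -0.06 on all arrays and -0.40 without Fe-sufficient 1. The brighter transcript of ferritin (GRMZM2G325575, T01), the Fe storage protein, was highest on Fe-sufficient 1, with 13.23, 13.26 and 13.27 on the Fe-deficient arrays against 13.96, 13.23 and 13.22 on the Fe-sufficient arrays. PYE homolog T03 had Fe-sufficient 1 on the side of the Fe-deficient arrays, and IRO3 had it farthest from them. Of 15 transcripts of the reference genes GAPDH and TUA 0 were called, 2 did not overlap, both lower in Fe-deficient roots, and 1 passed the unadjusted p and fold. This was TUA T07 (GRMZM2G152466_T07), with 11.71, 10.55 and 11.73 on the Fe-deficient arrays against 12.00, 12.15 and 12.33 on the Fe-sufficient arrays, a difference of -0.83 that is as large in size as that of IRO3 T03.

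**Figure D5:**
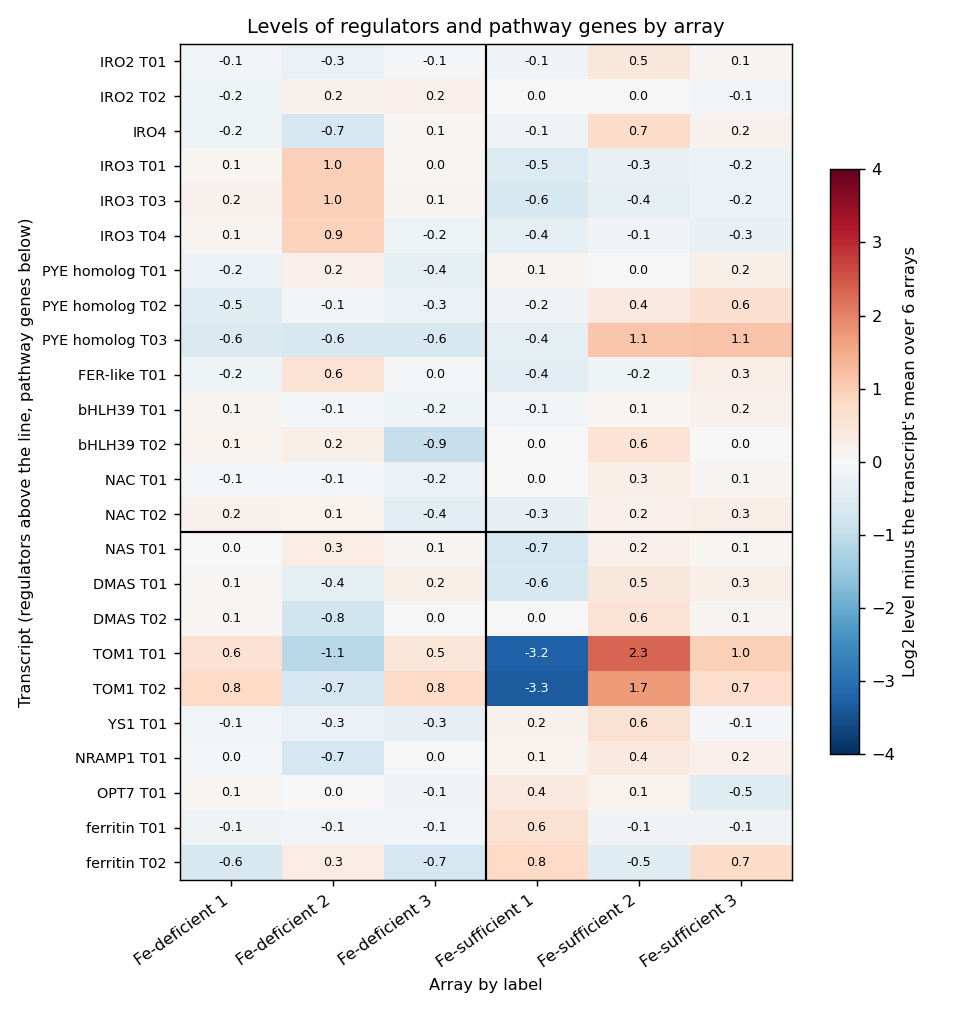
Log2 level of each regulator transcript (above the horizontal line) and each pathway transcript (below it) minus its mean over the 6 arrays, by array, with arrays labelled Fe-deficient left of the vertical line and those labelled Fe-sufficient right of it. TOM1 is far below its mean only on Fe-sufficient 1, IRO3 is highest on Fe-deficient 2, and PYE homolog T03 is above its mean only on Fe-sufficient 2 and 3.

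In the families of these regulators, taken as the genes that the gene table names bHLH or NAC, 0 of 83 transcripts of 44 other bHLH genes and 0 of 39 transcripts of 23 other NAC genes were called. Without overlap were 4 bHLH transcripts higher and 3 lower in Fe-deficient roots, and 5 NAC transcripts higher and 3 lower. Over all transcripts 0.0853% were called, and 9.75% were higher and 7.65% lower without overlap. The median differences of the bHLH and NAC transcripts were 0.02 and 0.0009, beside 0.01 over all transcripts.

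The brightest transcript of each regulator was also set against 2114 named genes above background on all arrays by its pattern over the 6 arrays, as the root mean square (RMS) difference of log2 levels centred on their means. IRO2 and the NAC gene differed by 0.131, and bHLH39 and the NAC gene by 0.127. IRO4 and IRO3 were the farthest apart of the 21 pairs (0.831). The measure depends on how much a transcript varies, so transcripts that vary little lie close to many others. The median over the named genes was 0.260 for bHLH39, 0.281 for the NAC gene and 0.325 for IRO2. IRO2 and IRO4 differed by 0.217. Closest to IRO3 were GRF9 (0.062) and FBL2 (0.098), where the median over the named genes was 0.514. Closest to IRO4 were lac4, a laccase gene (0.045), and CesA12, a cellulose synthase gene (0.095), and closest to IRO2 were KIN6 (0.049) and EREB203 (0.053). For the FER-like gene they were cyclin4 (0.116) and PYL3 (0.124), for PYE homolog T01 PLTZ9 (0.077) and rs2 (0.084), for bHLH39 brahma1 (0.035) and HB112 (0.051), and for the NAC gene LC-FACS (0.043) and HAK11 (0.058). With 6 arrays and 2114 candidates, some genes are close to any pattern, and none of these neighbours was called.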

How the data were processed

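Root RNA was labelled with Cy3 and hybridised to 6 NimbleGen arrays on 1 slide. The deposited files hold a linear intensity for each probe, which the authors had quantile-normalized between arrays (medians of 549.97 to 550.03), and the deposited value table holds the same intensities (largest difference 0). The study names NimbleScan and RMA, and RMA is also in the submitters' processing notes, where no version is given. The sources used here do not give whether background was subtracted. For arrays, the number of arrays limits the precision.

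Intensities were put on a log2 scale, the probes of a transcript were summarised by median polish, and groups were compared with lmFit and eBayes of limma 3.58.1 (R 4.3.3), as Fe-deficient minus Fe-sufficient and without covariates. Adjustment of p-values was by Benjamini-Hochberg over 59756 transcripts. The thresholds and the test follow the methods of the study. An exact permutation test of 3 against 3 arrays cannot go below p = 0.1 and was not used. The procedure was tested on simulated data. Figures were drawn with matplotlib 3.10.9.

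Members and gene lists were chosen with earlier results of these data known. Named were all transcripts of the 7 regulators, 7 pathway genes and 2 reference genes, and for each regulator the 2 genes with the most similar pattern. Names of other genes came from a RefSeq gene table, through its symbols or, since most symbols are locus numbers, its synonyms, a choice made after seeing the table. Of 39219 genes, 18171 matched 1 RefSeq gene (4 of the 7 regulators) and 2546 had a name. Levels were not ranked between genes, since probes differ in brightness. Promoter, protein and probe sequences were not analysed here. A slide block could not be fitted with 1 slide.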

Additional observations from a re-analysis of the deposited data

How the results depend on the processing

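The number of called regulator transcripts was 0 under every alternative except an unadjusted p, with 3, and the omission of single arrays, with 0 to 1, the 1 being PYE homolog T03 without Fe-sufficient 1 (log2 difference -1.75). Over all transcripts, 51 were called. That count was 28 with normexp background correction (rma75), 165 with array weights, 30 with the brightest transcript of each gene, 3190 with an unadjusted p, and 2 to 1096 with 1 array left out, lowest without Fe-deficient 1 and highest without Fe-sufficient 1. It lay between 50 and 72 with median scaling, cyclic loess, averaged or single probes, dim transcripts left out, a minimum fold of 2 or no minimum. With the replicate number as a block it was 0, and 0 regulator transcripts were called. Same-numbered arrays did not deviate together (correlations of -0.12, -0.008 and 0.07). These are deviations from means of 3 arrays that include the arrays standing apart. They cannot show whether same-numbered arrays came from the same cultivation.

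Of 168 differences of single regulator transcripts under alternatives, 162 kept their direction and their side of the threshold. With array weights, which were lowest for Fe-sufficient 1 (0.40) and Fe-deficient 2 (0.49), the FER-like gene was at -0.027 and IRO2 T02, which no probe showed above background, at -0.032. With single arrays left out, bHLH39 T02 (GRMZM2G162382_T02) ranged from -0.57 to 0.013 (without Fe-deficient 3), NAC T02 from -0.28 to 0.10 and PYE homolog T03 from -1.75 to -0.99. NAC T02 was above 0 without Fe-deficient 3 (0.10) and without Fe-sufficient 3 (0.0077). The causes were not tested. The median difference of all transcripts stayed between -0.0018 and 0.036. Of the 12 regulator transcripts above background on all arrays, 6 were so by all of their probes. With the 90th or the 99th percentile of the random probes as the limit the count was 13 or 10. Dim probes limit IRO2 T02 and PYE homolog T02 most.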
